A study of Homo sapiens with 10 samples.

Results

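Genes that the transcription factor p53 is known to switch on directly were followed in HCT116, a human colorectal carcinoma cell line known to carry functional p53. The list holds 33 established direct targets, named by symbol, of 57993 symbols in the deposited tables. All 33 were present, and 32 of them were among the 17779 genes tested, those reaching a scaled value of 1 in 2 or more libraries. The remaining member, EDA2R, a receptor of the tumour necrosis factor family, stayed under 0.07 in every library and was not tested.

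p53 is a stress-activated transcription factor that is held at low protein level by MDM2, a ubiquitin ligase and itself a p53 target. When p53 is stabilised it binds paired short half-sites in DNA and raises genes that stop the cell cycle, such as CDKN1A (p21), promote cell death, such as BBC3 (PUMA), repair DNA or limit metabolic stress. Through p21 it also lowers many cell cycle genes indirectly. RNA tables such as these measure the targets and not the p53 protein.

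The series concerns KDM5A, an enzyme that takes methyl groups off lysine 4 of histone H3, and how it is methylated by SMYD2. RNA-seq was made of 10 libraries in 4 groups: KDM5A-/- HCT116 cells given a plasmid for a mutant KDM5A (2 libraries), the same knockout cells given wild-type KDM5A (3 libraries) or an empty vector (3 libraries), and parental HCT116 cells, wild type at KDM5A, given the empty vector (2 libraries). In all groups the cells were sorted for GFP 24 hours after transfection and total RNA was taken. The mutation is not named in the labels, so the mutant protein is described here only as mutant KDM5A. Both lines were purchased, and G418 was in the medium of the knockout line only, so effects of the KDM5A genotype, of the individual line and of G418 cannot be told apart. No label tells whether the libraries of 1 group were separate cultures, so each p-value below measures the spread between these libraries, which may be technical.

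Values are linear FPKM (fragments per kilobase of transcript, relative to the library's total) after scaling each library to a common median ratio, and fold changes are differences of log2(scaled value + 1), with the standard error (SE) of the limma fit. "Rose" and "fell" mean an adjusted p under 0.05 by limma with Benjamini-Hochberg adjustment over all genes tested. Read counts were not used, so the depth of each library is unknown. KDM5A itself was 23350 and 22820 with the mutant plasmid, 13450, 16240 and 15600 with the wild-type plasmid, 12.2, 15.3 and 12.3 in knockout cells with empty vector, and 13.3 and 17.7 in parental cells. The plasmids are plain in these levels, while RNA summed over the whole gene does not separate the cells labelled KDM5A-/- from the parental cells. In make-up, both mutant libraries and the parental library numbered 2 differed from the rest: protein-coding genes took 90.4% to 91.0% of their signal, against 92.7% to 93.1% in the other 7, and ribosomal protein genes took 14.8% to 15.5%, against 11.99% to 13.3%. All 6 epithelial markers were expressed in every group, and 7 of 10 markers of blood, endothelial, stromal and liver cells were under 1 in every library, with LUM at 0 and COL1A1 the main exception. The epithelial markers summed to 5094 to 5615 with mutant KDM5A, 4360 to 4609 with wild-type KDM5A, 4121 to 4169 in knockout cells with empty vector and 3849 to 4433 in parental cells.

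The members spanned a wide range of levels, which FPKM gives per length. Averaged over the 10 libraries, SFN (654.5), GDF15 (632), GADD45A (392) and CDKN1A (360.2) had the highest scaled FPKM. In all, 9 members averaged over 100, 22 lay between 10 and 100, and ZMAT3 (8.43), an RNA-binding zinc finger protein, and EDA2R lay under 10. All members but EDA2R were expressed in every group, parental cells included, without any DNA-damaging treatment being named in the labels. Among neighbours in this order, SFN and GDF15 overlapped between their libraries, as did GDF15 and GADD45A, and GADD45A and CDKN1A. For 15 of the 33 members, exons overlap those of another annotated gene, most on the opposite strand, among them CDKN1A (146 bases), MDM2 (785 bases) and CYFIP2 (225 bases). The strand setting of the counting is not given in the sources used here, so reads of such pairs may not have been separated.

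Against the empty vector and after median-ratio scaling, both KDM5A plasmids went with higher RNA of a subset of the targets, led by GADD45A, GDF15, TP53INP1 and BBC3. With wild-type KDM5A these 4 passed under every scaling tried, and with mutant KDM5A only GADD45A of them did. With wild-type KDM5A, 8 of 32 members rose (25%) where 2.52% of all genes tested rose, and 1 fell (3.12%) where 2.02% of all genes fell. The median log2 fold change of the members was 0.16, beside 0.00 for all genes. With mutant KDM5A, 8 of 32 rose (25%) where 9.48% of all genes rose, and 2 fell (6.25%) where 7.05% of all genes fell. With the values as deposited, 2 members rose and 12 fell with mutant KDM5A, where 458 of all genes rose and 6150 fell. In the same comparison 4 of 6 epithelial markers rose (KRT8, KRT18, KRT19 and EPCAM, median of the list 0.33) and 1 of 2 tested markers of other cells, COL1A1, fell (-0.70). None of these 4 epithelial markers passed with the values as deposited (-0.03 to 0.06) or with quantile normalization (-0.22 to 0.01), so their direction rests on the scaling. The part of the markers in the members' values was not tested. Here the median of the members was 0.13, beside -0.01 for all genes. Both comparisons use the same 3 empty vector libraries, so their values stand side by side and are not independent of each other. Since each library is RNA of many sorted cells, more RNA per cell and more cells expressing a gene cannot be told apart.

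**Figure D1:**
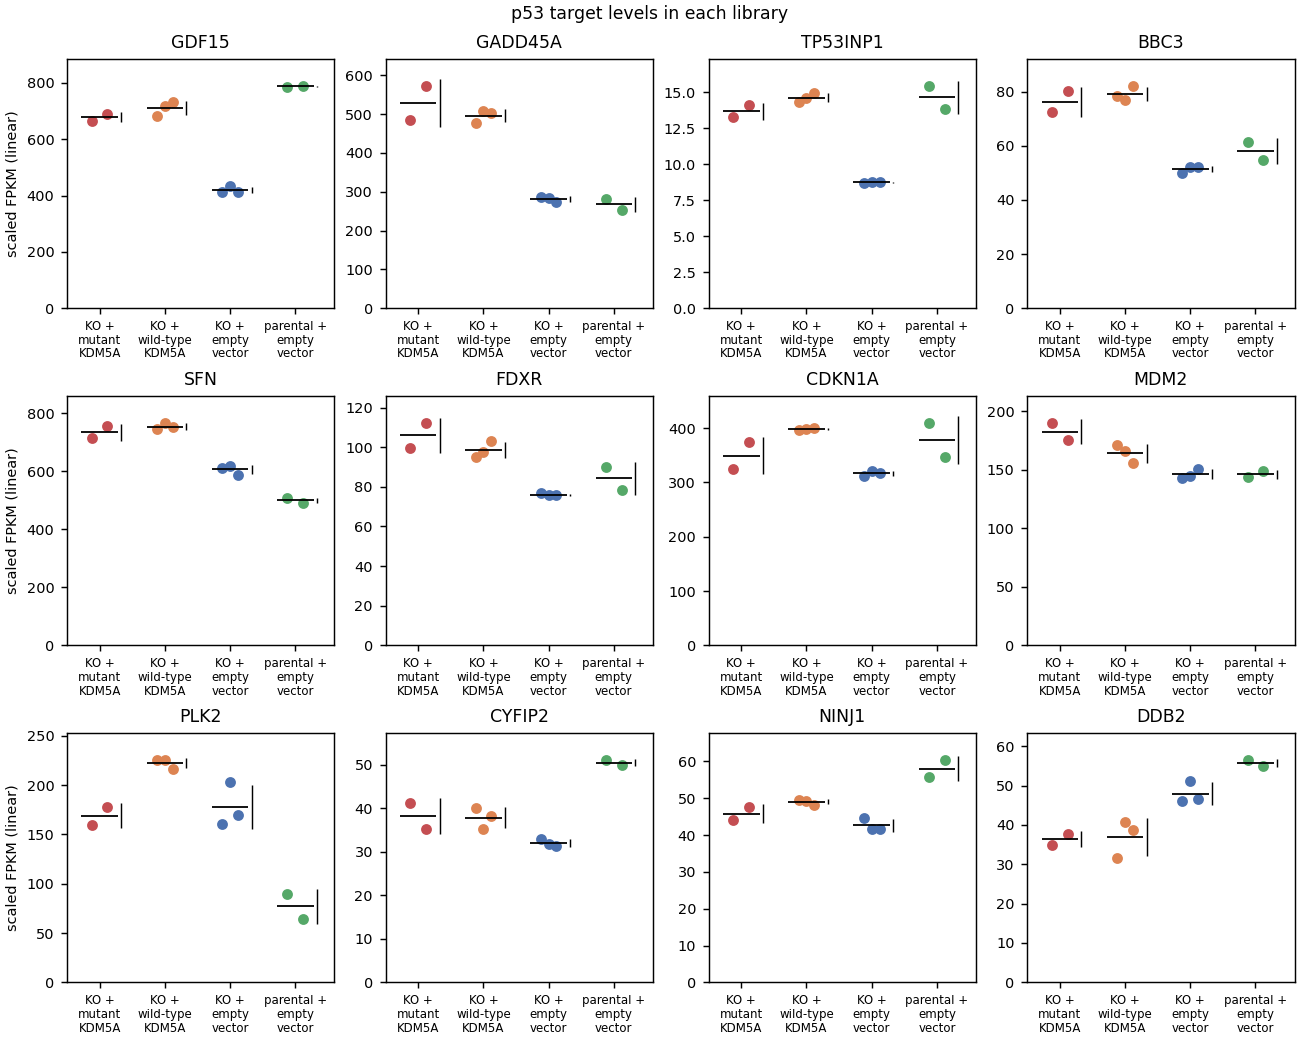
Scaled FPKM (linear y axes that start at 0, 1 panel per gene) of 12 p53 targets in each library, for knockout (KO) cells with mutant KDM5A, wild-type KDM5A or empty vector and parental cells with empty vector. Points are libraries, horizontal lines are group means and vertical lines are the mean ± SD; GDF15 and TP53INP1 are lowest in knockout cells with empty vector, and GADD45A is high only in the libraries with a KDM5A plasmid.

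Of the cell cycle arrest genes, 3 of 6 rose with mutant KDM5A, and 4 of 6 rose with wild-type KDM5A. Beside these counts and those of the roles below, 9.48% of all genes rose and 7.05% fell with mutant KDM5A. With wild-type KDM5A, 2.52% of all genes rose and 2.02% fell. GADD45A, a stress sensor that binds cell cycle and stress kinases, was 485 and 573 with mutant KDM5A, 476, 508 and 502 with wild-type KDM5A, 287, 284 and 273 with empty vector, and 282 and 254 in parental cells. All 5 libraries with a KDM5A plasmid lay above all 5 without one, and the knockout and parental cells with empty vector overlapped. The log2 fold change was 0.90 (SE 0.08, adjusted p = 0.000566) with mutant KDM5A and 0.81 (SE 0.07, adjusted p = 0.000718) with wild-type KDM5A. SFN, the cell cycle inhibitor stratifin, was 713 and 755 with mutant KDM5A, 744, 766.5 and 751 with wild-type KDM5A, 611, 619 and 587 with empty vector, and 506 and 492 in parental cells. Its groups did not overlap in any of the comparisons with empty vector, and the parental cells were lowest. SFN rose by 0.28 (SE 0.05, adjusted p = 0.00968) with mutant KDM5A and by 0.32 (SE 0.04, adjusted p = 0.00812) with wild-type KDM5A. With mutant KDM5A, SFN was at -0.19 with quantile normalization and -0.06 with the values as deposited, and did not pass. With wild-type KDM5A it was 0.29 (adjusted p = 0.0513) without empty vector library 3 and 0.30 (adjusted p = 0.0523) without wild-type library 2, and lower still at 0.15 (adjusted p = 0.292) with quantile normalization and 0.20 (adjusted p = 0.108) with the values as deposited.

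CDKN1A, which encodes the cyclin-dependent kinase inhibitor p21 and is the best known arrest target, was 325 and 374 with mutant KDM5A, 396.5, 399 and 399.6 with wild-type KDM5A, 312, 321 and 317.5 with empty vector, and 409.8 and 348 in parental cells. The 3 wild-type libraries were high and close together, whereas the mutant libraries lay between them and the empty vector libraries. CDKN1A rose with wild-type KDM5A (0.33, SE 0.07, adjusted p = 0.0354) and had a log2 fold change of 0.14 (95% interval -0.04 to 0.32, adjusted p = 0.258) with mutant KDM5A. PLK3, a stress-response polo-like kinase, was 62.9 and 64.0 with mutant KDM5A, 64.3, 69.4 and 74.5 with wild-type KDM5A, 52.1, 56.0 and 58.3 with empty vector, and 70.5 and 67.2 in parental cells. Its knockout cells with empty vector were lowest. PLK3 rose with wild-type KDM5A (0.32, SE 0.07, adjusted p = 0.0328), and its log2 fold change with mutant KDM5A was 0.19 (SE 0.07, adjusted p = 0.109). The calls of CDKN1A and PLK3 were lost when any 1 of the 6 wild-type and empty vector libraries was left out, with values of 0.32 to 0.34 (adjusted p of 0.105 to 0.119) for CDKN1A and 0.27 to 0.37 (adjusted p of 0.0522 to 0.116) for PLK3. Other scalings gave smaller values that did not pass: CDKN1A was at 0.20 (adjusted p = 0.280) with quantile normalization and 0.22 (adjusted p = 0.251) with the values as deposited, and PLK3 at 0.20 (adjusted p = 0.201) with the values as deposited.

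BTG2, an antiproliferative factor, was 49.9 and 52.1 with mutant KDM5A, 46.1, 47.9 and 41.3 with wild-type KDM5A, 38.8, 40.6 and 41.5 with empty vector, and 46.1 and 45.2 in parental cells. Its mutant libraries were highest, and the wild-type libraries overlapped those with empty vector. BTG2 rose with mutant KDM5A (0.33, SE 0.07, adjusted p = 0.0161) and had a log2 fold change of 0.16 (SE 0.06, adjusted p = 0.207) with wild-type KDM5A. With the values as deposited, BTG2 was at -0.0002 with mutant KDM5A and did not pass. Its rise was 0.36 (adjusted p = 0.0530) without mutant library 1 and 0.30 (adjusted p = 0.0598) without mutant library 2. PLK2, a polo-like kinase linked to centriole duplication, was 160 and 178 with mutant KDM5A, 226, 225 and 216 with wild-type KDM5A, 160.3, 203 and 169.8 with empty vector, and 89.7 and 64.5 in parental cells. The spread among its empty vector libraries was wide, and neither plasmid passed the test, with -0.07 (adjusted p = 0.777) for mutant and 0.33 (adjusted p = 0.175) for wild-type KDM5A.

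Among the 5 targets that feed back on p53, 1 rose with mutant KDM5A and 1 fell with wild-type KDM5A. MDM2, the ubiquitin ligase that marks p53 for degradation, was 190 and 175 with mutant KDM5A, 171, 166 and 155 with wild-type KDM5A, 143, 145 and 151 with empty vector, and 143 and 149 in parental cells. All 5 plasmid libraries lay above the 5 without. MDM2 rose with mutant KDM5A (0.32, SE 0.06, adjusted p = 0.0113) and did not pass with wild-type KDM5A (0.17, SE 0.05, adjusted p = 0.125). Under the other scalings its mutant value did not pass, at 0.11 (adjusted p = 0.246) with quantile normalization and -0.02 (adjusted p = 0.835) with the values as deposited. Without mutant library 1, the mutant value of MDM2 was 0.26 (adjusted p = 0.0655). PPM1D, the phosphatase that turns down p53 and its kinases, was 30.1 and 27.6 with mutant KDM5A, 28.4, 27.0 and 26.1 with wild-type KDM5A, 32.8, 33.7 and 32.2 with empty vector, and 34.5 and 31.9 in parental cells. All 5 of its plasmid libraries lay below all 5 others. PPM1D fell with wild-type KDM5A (-0.27, SE 0.06, adjusted p = 0.0462), a call lost without any 1 of the 6 libraries (values of -0.30 to -0.24, adjusted p of 0.0927 to 0.156), and was at -0.18 (SE 0.07, adjusted p = 0.103) with mutant KDM5A. CCNG1 (cyclin G1), ZMAT3 and FBXO22, a ubiquitin ligase subunit, passed in none of the comparisons.

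Of the 9 mitochondrial and cytosolic death genes, BBC3 and TP53INP1 rose with each plasmid. BBC3, the BH3-only protein PUMA that frees BAX to open mitochondria, was 72.4 and 80.2 with mutant KDM5A, 78.2, 77.0 and 82.2 with wild-type KDM5A, 50.05, 52.2 and 52.1 with empty vector, and 61.4 and 54.6 in parental cells. The plasmid libraries lay well above the others, with parental cells in between. Its log2 fold change was 0.56 (SE 0.07, adjusted p = 0.00302) with mutant KDM5A and 0.61 (SE 0.06, adjusted p = 0.00181) with wild-type KDM5A. TP53INP1, a nuclear protein that promotes p53-dependent death and autophagy, was 13.3 and 14.1 with mutant KDM5A, 14.3, 14.6 and 14.9 with wild-type KDM5A, 8.70, 8.75 and 8.77 with empty vector, and 15.45 and 13.8 in parental cells. Only the knockout cells with empty vector were low, and their 3 libraries were nearly equal. TP53INP1 rose by 0.59 (SE 0.08, adjusted p = 0.00430) with mutant KDM5A and by 0.68 (SE 0.07, adjusted p = 0.00207) with wild-type KDM5A.

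TP53I3, a quinone oxidoreductase that raises reactive oxygen, was 14.1 and 18.2 with mutant KDM5A, 22.0, 22.5 and 18.2 with wild-type KDM5A, 24.3, 24.0 and 25.1 with empty vector, and 28.8 and 29.02 in parental cells. Its mutant libraries were lowest, level with 1 wild-type library. TP53I3 fell with mutant KDM5A (-0.58, SE 0.12, adjusted p = 0.0140), without mutant library 1 by 0.40 (adjusted p = 0.0778), and was at -0.22 (SE 0.11, adjusted p = 0.281) with wild-type KDM5A. BAX, the pore former on which BBC3 acts, did not pass after median-ratio scaling: its log2 fold change was -0.35 (95% interval -0.63 to -0.07, adjusted p = 0.0862) with mutant KDM5A and -0.22 (95% interval -0.47 to 0.03, adjusted p = 0.304) with wild-type KDM5A. With mutant KDM5A, BAX was called lower under both other scalings. It was at -0.50 (adjusted p = 0.0422) with quantile normalization and -0.69 (adjusted p = 0.00784) with the values as deposited. Likewise AEN, PERP, PHLDA3, TRIAP1 and CYFIP2 did not pass against the empty vector, with log2 fold changes from -0.19 (AEN) to 0.24 (CYFIP2) with mutant KDM5A and from -0.37 (TRIAP1, adjusted p = 0.0676) to 0.23 (CYFIP2) with wild-type KDM5A. TRIAP1 with wild-type KDM5A was called lower under both other scalings. It was at -0.41 (adjusted p = 0.0453) with quantile normalization and -0.48 (adjusted p = 0.0211) as deposited. As deposited, AEN, PERP and TRIAP1 were also called lower with mutant KDM5A. The death receptors FAS and TNFRSF10B did not pass in any comparison, and the higher of their values was 0.39 for FAS with mutant KDM5A (95% interval 0.10 to 0.67, adjusted p = 0.0654).

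The 4 genes of DNA repair and nucleotide supply did not share a direction. DDB2, the damage recognition subunit of nucleotide excision repair, was 34.9 and 37.8 with mutant KDM5A, 31.5, 40.7 and 38.6 with wild-type KDM5A, 45.95, 51.3 and 46.5 with empty vector, and 56.5 and 55.01 in parental cells. Every plasmid library lay below every library without one, opposite to GADD45A. DDB2 fell with mutant KDM5A (-0.39, SE 0.10, adjusted p = 0.0357) and was at -0.37 (SE 0.09, adjusted p = 0.0599) with wild-type KDM5A, and the call with mutant KDM5A was lost without any 1 of the 5 libraries compared (values of -0.45 to -0.33, adjusted p of 0.0601 to 0.165). RRM2B, the p53-induced subunit of ribonucleotide reductase, had log2 fold changes of 0.30 (adjusted p = 0.0533) with mutant and 0.31 (adjusted p = 0.0690) with wild-type KDM5A. XPC, the partner of DDB2 in damage recognition, had -0.23 (adjusted p = 0.0906) with mutant and -0.21 (adjusted p = 0.157) with wild-type KDM5A, and the translesion polymerase POLH had 0.20 (adjusted p = 0.371) with mutant and -0.13 (adjusted p = 0.646) with wild-type KDM5A.

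Among the 6 stress, metabolic and secreted targets, GDF15 and FDXR rose with each plasmid. GDF15, a secreted stress cytokine of the TGF-beta family, was 665 and 691 with mutant KDM5A, 681.5, 717 and 733 with wild-type KDM5A, 413, 432 and 414 with empty vector, and 786.5 and 789.5 in parental cells. The knockout cells with empty vector were lowest and the parental cells highest, and no library of these groups crossed another group except between mutant and wild-type KDM5A. GDF15 rose by 0.69 (SE 0.05, adjusted p = 0.000306) with mutant KDM5A and by 0.76 (SE 0.05, adjusted p = 9.11e-05) with wild-type KDM5A. FDXR, the mitochondrial reductase that feeds electrons into iron-sulfur and steroid pathways, was 99.6 and 112 with mutant KDM5A, 95.1, 97.6 and 103 with wild-type KDM5A, 76.7, 75.7 and 75.7 with empty vector, and 90.1 and 78.45 in parental cells. All plasmid libraries lay above all others. FDXR rose by 0.47 (SE 0.08, adjusted p = 0.00684) with mutant KDM5A and by 0.37 (SE 0.07, adjusted p = 0.0200) with wild-type KDM5A, the call with wild-type KDM5A being lost without any 1 of its 6 libraries (values of 0.34 to 0.40, adjusted p of 0.0629 to 0.0859). SESN1, DRAM1, CES2 and NINJ1 did not pass against the empty vector, with log2 fold changes from -0.13 (CES2) to 0.27 (SESN1) with mutant and from 0.01 (CES2) to 0.32 (DRAM1) with wild-type KDM5A.

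**Figure D2:**
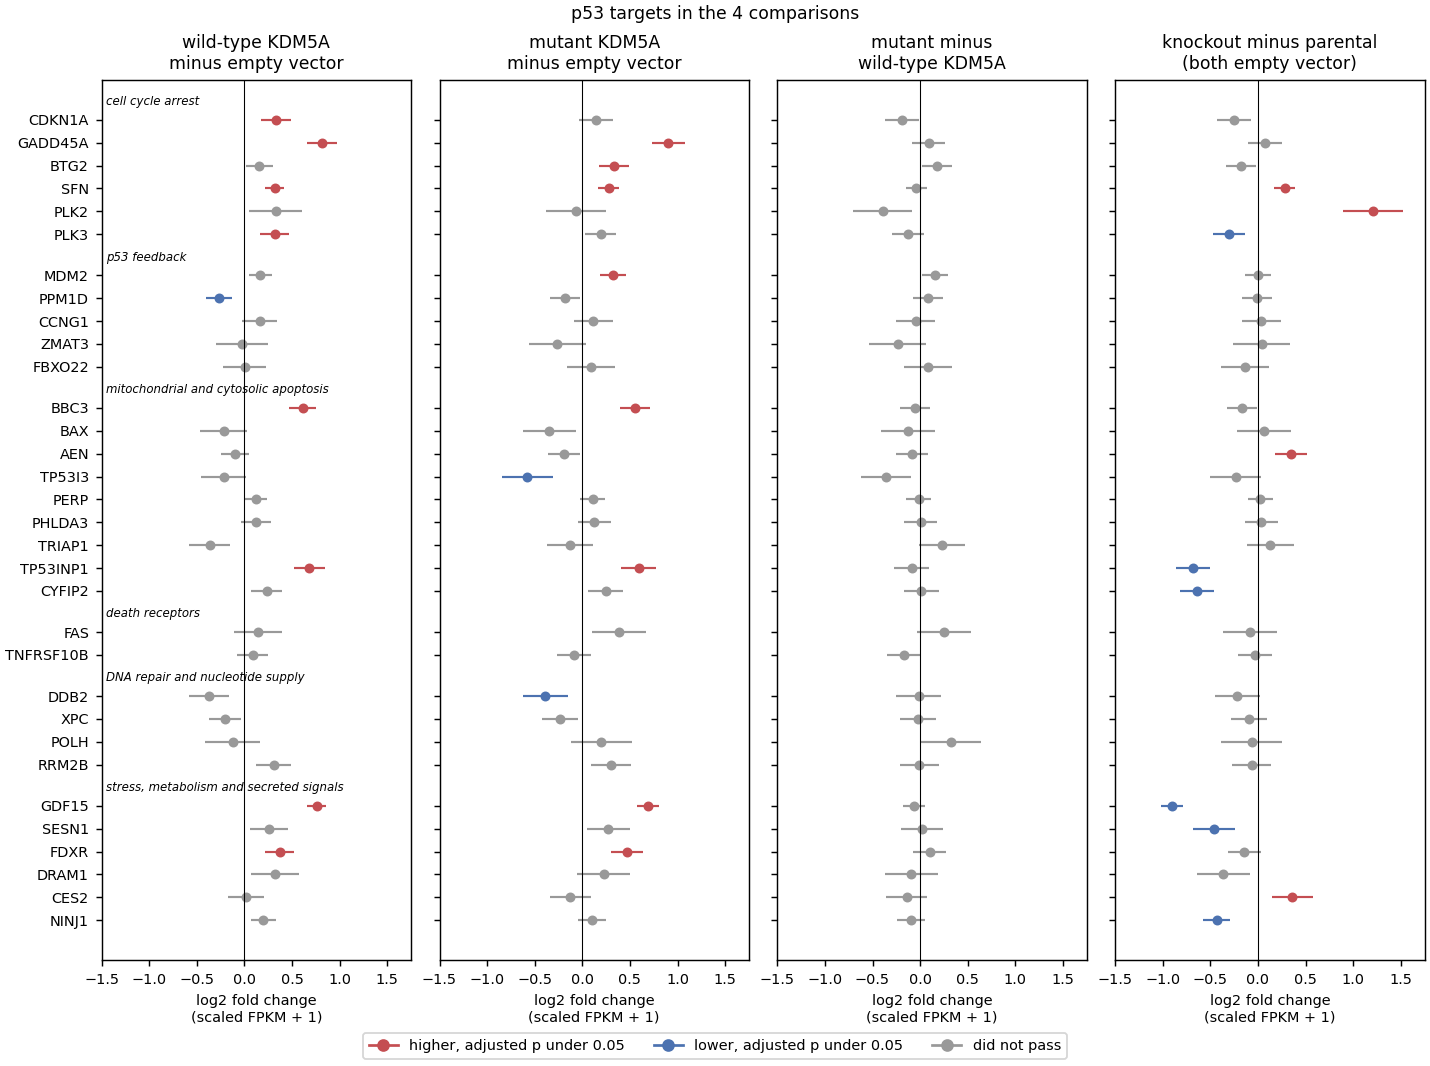
Log2 fold change of scaled FPKM + 1 (x axes) for the 32 tested p53 targets (rows, grouped by role) in 4 comparisons, with 95% intervals of the limma fit as bars. GADD45A, GDF15, TP53INP1 and BBC3 stand furthest to the right against the empty vector, no gene passed between mutant and wild-type KDM5A, and PLK2 and GDF15 lie at opposite ends between knockout and parental cells.

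The scaling of the libraries bore on the calls. With the values as deposited, the median log2 difference of all genes was -0.30 for mutant and -0.10 for wild-type KDM5A against the empty vector. The calls over all genes with mutant KDM5A were then 458 higher and 6150 lower, against 1685 higher and 1254 lower after scaling, and with wild-type KDM5A 123 higher and 613 lower, against 448 higher and 359 lower. With quantile normalization the mutant comparison had 887 higher and 1223 lower calls over all genes, and 5 higher and 3 lower (TP53I3, DDB2 and BAX) among the members. For wild-type KDM5A the same normalization ended 5 of the 9 member calls, those of CDKN1A, FDXR, PLK3, PPM1D and SFN, and added 1, with TRIAP1 lower. Of the members, 2 rose (GADD45A and GDF15) and 12 fell with mutant KDM5A on the deposited scale, where the median of the members was -0.21 and lay 0.10 above that of all genes. With wild-type KDM5A, 4 rose and 3 (PPM1D, DDB2 and TRIAP1) fell on that scale. With mutant KDM5A, SFN (-0.06), MDM2 (-0.02) and BTG2 (-0.0002) had negative values on it and did not pass, and TP53INP1, BBC3 and FDXR stayed positive but did not pass. GADD45A with each plasmid, and GDF15, BBC3 and TP53INP1 with wild-type KDM5A, passed under every scaling tried. With quantile normalization and mutant KDM5A, GDF15 was at 0.27 (adjusted p = 0.0856), MDM2 at 0.11 (adjusted p = 0.246) and SFN at -0.19 (adjusted p = 0.156). The mutant libraries are those with the lower protein-coding share and the higher ribosomal protein share. Over 14219 genes with a known exonic length, the log2 fold change also followed length more in the comparisons with mutant KDM5A (Spearman -0.19 against empty vector and -0.20 against wild-type KDM5A) than with wild-type KDM5A against empty vector (-0.07) or in knockout against parental cells (0.02), as a description across genes. Among the 32 members it was -0.13 with mutant and -0.15 with wild-type KDM5A against empty vector. It was 0.02 for mutant against wild-type KDM5A and -0.02 for knockout against parental cells, so this order did not hold among the members. The part of these differences in the values above was not tested.

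**Figure D3:**
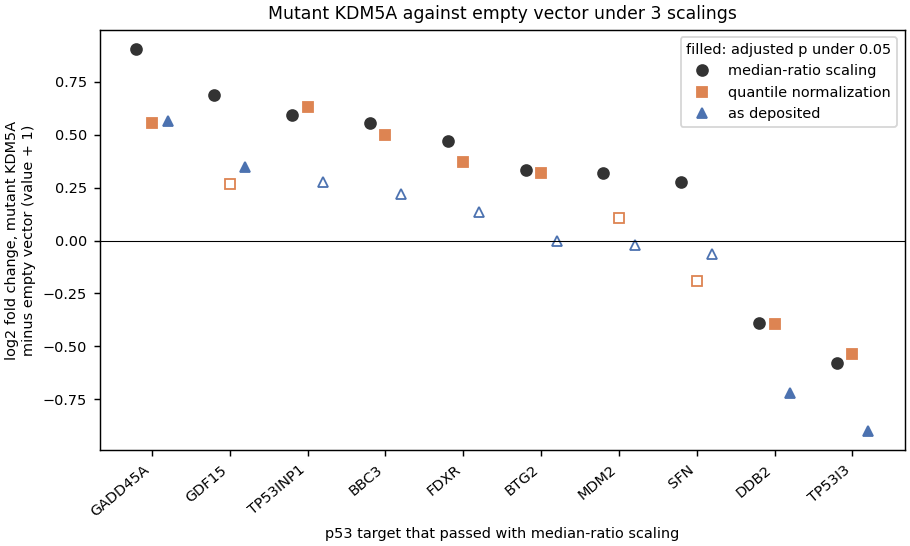
Log2 fold change of mutant KDM5A minus empty vector (y axis) for the 10 p53 targets that passed with median-ratio scaling (x axis), under 3 scalings; filled symbols had an adjusted p under 0.05. GADD45A and both lower genes kept their direction and passed under each scaling, while BTG2, MDM2 and SFN lay near or below 0 with the values as deposited.

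Mutant and wild-type KDM5A were also compared directly. KDM5A RNA itself was higher with the mutant plasmid (23350 and 22820) than with the wild-type plasmid (13450, 16240 and 15600). Both mutant libraries also differed in make-up, as given above. Effects of the mutation, of the KDM5A level and of the make-up therefore cannot be told apart here. No member rose and none fell by limma, where 0.0337% of all genes rose and 0.0225% fell. The members' log2 fold changes ran from -0.40 (PLK2) to 0.32 (POLH), with a median of -0.03, beside 0.00 for all genes, and 6 of 32 (18.8%) had an unadjusted p under 0.05, beside 20.2% of all genes. For the 4 targets that led against the empty vector the values were near 0: GADD45A had 0.09 (95% interval -0.09 to 0.26), GDF15 -0.07 (-0.18 to 0.05), BBC3 -0.05 (-0.21 to 0.10) and TP53INP1 -0.09 (-0.27 to 0.09). CDKN1A was lower with mutant KDM5A in both libraries, at -0.19 (95% interval -0.37 to -0.01, adjusted p = 0.218), and PLK2 likewise, at -0.40 (-0.71 to -0.08, adjusted p = 0.164). MDM2 and BTG2 were higher with mutant KDM5A in both libraries, at 0.15 (0.02 to 0.29, adjusted p = 0.208) and 0.18 (0.02 to 0.34, adjusted p = 0.211). In all, 8 members (25%) had both mutant libraries below all 3 wild-type libraries, where 19.4% of all genes did, and 2 (6.25%) had both above, where 19.5% of all genes did. The other 6 of the 8 were PLK3, AEN, TP53INP1, TNFRSF10B, CES2 and NINJ1, none of which passed. These misses do not show that the proteins act alike. With the values as deposited, where all genes had a median of -0.20, GDF15, NINJ1 and TP53I3 were called lower with mutant KDM5A, and the calls over all genes were 107 higher and 1383 lower, against 6 higher and 4 lower after scaling.

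In cells labelled KDM5A-/- with empty vector, 4 of 32 members rose relative to parental cells (12.5%) where 4.84% of all genes rose, and 6 fell (18.8%) where 4.09% of all genes fell. The median of the members was -0.08, beside 0.00 for all genes. PLK2 had the largest rise, at 1.21 (SE 0.14, adjusted p = 0.00187), with its 3 knockout libraries at or above 160.3 and both parental libraries under 90. SFN rose by 0.28 (SE 0.05, adjusted p = 0.0117). AEN, an exonuclease of apoptosis, was 92.45, 94.8 and 94.2 in knockout cells and 80.5 and 67.3 in parental cells, and CES2, a carboxylesterase, was 27.7, 23.4 and 23.4 in knockout cells and 19.5 and 18.7 in parental cells. Both rose, AEN by 0.35 (SE 0.07, adjusted p = 0.0239) and CES2 by 0.36 (SE 0.09, adjusted p = 0.0485). The rise of CES2 was lost without any 1 of the 5 libraries (0.28 to 0.40, adjusted p of 0.0794 to 0.193). That of AEN was lost in 4 of these 5 cases, the exception being the fit without parental library 1 (0.22 to 0.47, adjusted p of 0.00413 to 0.102).

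GDF15 showed the largest fall in the cells labelled KDM5A-/-, at -0.91 (SE 0.05, adjusted p = 8.13e-05), and its mean there was 0.533 times that of parental cells. TP53INP1 fell by 0.68 (SE 0.08, adjusted p = 0.00202). CYFIP2, an actin regulator reported as p53-inducible, was 32.96, 31.9 and 31.3 in knockout cells and 51.1 and 49.8 in parental cells, a fall of 0.64 (SE 0.08, adjusted p = 0.00264). NINJ1, an adhesion protein that ruptures the membrane of dying cells, was 44.8, 41.65 and 41.5 in knockout cells and 55.65 and 60.4 in parental cells, a fall of 0.44 (SE 0.06, adjusted p = 0.00537). These 4 genes showed no overlap between the groups, nor did SESN1 and PLK3, which follow. The share of all genes without overlap in this comparison is not given here. SESN1, a sestrin that restrains mTORC1, was 12.6, 11.1 and 10.3 in knockout cells and 16.5 and 15.6 in parental cells (-0.47, SE 0.10, adjusted p = 0.0218). PLK3 fell by 0.31 (SE 0.07, adjusted p = 0.0350). The fall of PLK3 was lost without any 1 of the 5 libraries (-0.34 to -0.26, adjusted p of 0.0606 to 0.104). That of SESN1 was lost in 4 of these 5 cases, the exception being the fit without empty vector library 1 of the knockout cells (-0.54 to -0.41, adjusted p of 0.0224 to 0.0763). Between these groups GADD45A (0.07, adjusted p = 0.613) and MDM2 (0.00, 95% interval -0.14 to 0.14) did not pass, nor did CDKN1A with all libraries (-0.25, 95% interval -0.43 to -0.07, adjusted p = 0.0828).

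The 3 knockout libraries with empty vector enter this comparison and both plasmid comparisons, so a low value there lowers a gene against parental cells and raises it with the plasmids. GDF15 and TP53INP1 were low in all 3 of them. BBC3, which rose with each plasmid, was at -0.17 (adjusted p = 0.171) between knockout and parental cells and did not pass there, nor did GADD45A. CYFIP2 and NINJ1, which fell in knockout cells, had 0.24 (adjusted p = 0.0691) and 0.10 (adjusted p = 0.319) with mutant KDM5A and 0.23 (adjusted p = 0.110) and 0.20 (adjusted p = 0.0924) with wild-type KDM5A. Without parental library 2 and both mutant libraries, 8 members were called between knockout and parental cells, against 10 with all libraries, with 7 shared. CES2, PLK3 and SESN1 were then lost and CDKN1A fell (-0.37, adjusted p = 0.00655), as it also did without parental library 2 alone (-0.37, adjusted p = 0.0375). As deposited, 971 of all genes were called higher and 372 lower in knockout cells, against 861 higher and 728 lower after scaling, and 4 members rose and 4 fell.

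The p53 response element is a pair of 10-base half-sites, and the promoters of the members were searched for it. RefSeq promoter windows (assembly GRCh38.p14, 250 bases before to 50 after each start) were matched for 27 of 33 members, and GADD45A, TNFRSF10B, TP53INP1, RRM2B, PHLDA3 and FBXO22 had no entry in the table. A full element, with a spacer of at most 13 bases, at most 2 mismatches and the core C and G of each half-site kept, was found for 5 of 27 member genes (18.5%) and for 989 of 27305 genes in the table (3.62%). The motif reads alike on both strands, so both were covered. Capitals mark bases that match the half-site letters, and lower case marks the spacer and mismatches; the last 2 lines are single half-sites without mismatch.
DDB2: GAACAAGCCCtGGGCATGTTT
MDM2: GGtCAAGTTCAGACAcGTTC
FAS: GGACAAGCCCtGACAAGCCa
AEN: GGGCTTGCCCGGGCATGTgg
FDXR: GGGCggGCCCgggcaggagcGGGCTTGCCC
PLK2: AGACTTGCTT
SESN1: GGACAAGTCT

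The DDB2 element, at chr11:47214979-47214999 on the plus strand, has 0 mismatches and a spacer of 1 base and begins at base 6 of the transcript. The other 4 full elements have 2 mismatches each. The MDM2 element (chr12:68808923-68808942, plus strand) begins 94 bases before a start, that of FAS (chr10:88991309-88991328, plus strand) 122 bases before, that of AEN (chr15:88621306-88621325, plus strand) 34 bases before, and that of FDXR (chr17:74872996-74873025, minus strand, spacer of 10 bases) 31 bases before. The half-sites lie 132 bases before a start of PLK2 (chr5:58460209-58460218, minus strand) and 49 bases before a start of SESN1 (chr6:109009028-109009037, minus strand). Counting genes with a full element too, a half-site without mismatch was found for 6 of 27 member genes (22.2%). Of all 27305 genes searched, 2202 had such a half-site (8.06%). The 5 genes with a full element did not move one way: with mutant KDM5A, DDB2 fell, FDXR and MDM2 rose, and FAS and AEN did not pass. With wild-type KDM5A, FDXR rose, and DDB2, MDM2, FAS and AEN did not pass. In knockout against parental cells, AEN rose, and the other 4 did not pass. A match is a run of letters in a window and not a measured binding site, and elements outside these windows were not searched.

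Of 32 tested regulators of p53, 0 rose and 0 fell with wild-type KDM5A. There 11 of the 32 had an unadjusted p under 0.05 by limma, a larger share than the 20.5% of all genes. With mutant KDM5A 2 rose and 6 fell, and in knockout against parental cells 3 rose and 3 fell. These shares are 6.25% and 18.8% with mutant KDM5A, beside 9.48% and 7.05% of all genes, and 9.38% each way in knockout cells, beside 4.84% and 4.09%. With mutant KDM5A the ribosomal proteins RPL11 (0.61) and RPL5 (0.51), which bind MDM2, rose, and the DNA damage kinase PRKDC (-0.35) and the acetyltransferase CREBBP (-0.37) fell. The ribosomal protein share of the mutant libraries, given above, was also higher, and its part in these calls was not tested. In knockout against parental cells CDKN2A (0.37), whose ARF product inhibits MDM2, CREBBP (0.40) and EP300 (0.35) rose, and PPP1R13L (-0.46), an inhibitor of p53, fell.

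A further list of 35 tested p53 targets gave 3 that rose and 2 that fell with mutant KDM5A, 4 that rose and 0 that fell with wild-type KDM5A, and 2 that rose and 4 that fell in knockout against parental cells. With mutant KDM5A the shares, 8.57% up and 5.71% down, were near those of all genes (9.48% and 7.05%). They were 11.4% up with wild-type KDM5A, beside 2.52%, and 5.71% up and 11.4% down in knockout cells, beside 4.84% and 4.09%. TNFRSF10D, a decoy death receptor, was 66.0 and 64.8 with mutant KDM5A, 67.9, 67.9 and 66.9 with wild-type KDM5A, 52.5, 50.2 and 50.55 with empty vector, and 57.2 and 53.7 in parental cells. After median-ratio scaling, all plasmid libraries lay above all others. TNFRSF10D rose by 0.35 (SE 0.05, adjusted p = 0.00550) with mutant and by 0.40 (SE 0.05, adjusted p = 0.00363) with wild-type KDM5A, and PMAIP1 (NOXA), a BH3-only death protein, rose by 0.35 with wild-type KDM5A. Whether values of this list, the regulators and the cell cycle genes below hold under the other scalings was not tested. As deposited, the median of all genes against the empty vector was -0.30 with mutant and -0.10 with wild-type KDM5A. PIDD1, a scaffold of caspase activation, fell by 0.56 with mutant KDM5A, and KITLG, a growth factor, fell by 0.55 in knockout against parental cells.

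Cell cycle genes that p53 lowers through p21 made up the last list of the pathway. Of 30 tested, 1 rose and 7 fell with mutant KDM5A, 0 rose and 5 fell with wild-type KDM5A, and 6 rose and 1 fell in knockout against parental cells. The shares that fell were 23.3% with mutant KDM5A, beside 7.05% of all genes, 16.7% with wild-type KDM5A, beside 2.02%, and 3.33% in knockout cells, beside 4.09%. Those that rose were 3.33% with mutant KDM5A, beside 9.48%, and 20% in knockout cells, beside 4.84%. CDK1, the mitotic kinase, was 57.5 and 58.0 with mutant KDM5A, 56.5, 53.8 and 54.3 with wild-type KDM5A, 75.3, 68.5 and 70.2 with empty vector, and 72.4 and 65.7 in parental cells. CDK1 fell by 0.30 (adjusted p = 0.0160) with mutant and by 0.37 (adjusted p = 0.0112) with wild-type KDM5A, without overlap with the empty vector libraries. TOP2A, the topoisomerase of dividing cells, fell by 0.43 with mutant and by 0.39 with wild-type KDM5A. The licensing helicase subunit MCM5 rose by 0.60 (adjusted p = 0.00326) and the transcription factor MYBL2 by 0.37 (adjusted p = 0.00748) in knockout against parental cells. No gene of these 3 lists passed between mutant and wild-type KDM5A by limma, where 6 of 32 regulators, 9 of 35 further targets and 9 of 30 cell cycle genes had an unadjusted p under 0.05, beside 20.2% of all genes.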

How the data were processed

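The authors deposited 1 table per library of log2 FPKM values for 60141 loci (57993 symbols), which, from the values, are log2(FPKM + 1) with linear sums of 999975 to 1000008. Per the submitters' processing notes the tools were Cufflinks 2.2.1, GATK 4.1.2, Picard and STAR 2.7.1a, with the build GRCh38; the annotation release is not given in the sources used here. Values were made linear, summed per symbol and divided by each library's median ratio to the geometric mean over 13651 genes of at least 1 in every library. Genes reaching 1 in 2 or more libraries (17779) were tested on log2(scaled value + 1), with a pseudocount of 1, in limma 3.58.1 (R 4.3.3; lmFit, contrasts.fit, eBayes with trend), all 10 libraries and 4 groups in 1 fit with 6 residual and 2.99 prior degrees of freedom, two-sided, with Benjamini-Hochberg adjustment. The fold change of a low gene is understated on this scale. Tables were read in Python 3.11.15 (pandas 2.3.3, numpy 2.4.6) and plotted with matplotlib 3.10.9. The fit was tested on simulated data. The members and lists were chosen with earlier results of these data known. Every member is accounted for, with values per library for members that passed in at least 1 comparison, CDKN1A and MDM2, and up to 4 genes per other list by smallest p. For AEN, CES2, CYFIP2, NINJ1 and SESN1 the values per library cover only the knockout and parental cells with empty vector. Gene overlaps come from GENCODE release 29 (GRCh38), promoters from RefSeq. Some genes are not reported here. Alternatives were other scalings, pseudocounts, filters, weights, thresholds, libraries in the fit and a replicate block.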

Additional observations from a re-analysis of the deposited data

How the results depend on the processing

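Of 29 calls of members, 16 were kept whichever library was left out, and 463 alternative values comprised 360 with the same call, 99 that no longer passed and 4 with the other sign. The 4 were all for mutant KDM5A against empty vector: BTG2 (-0.0002), SFN (-0.064) and MDM2 (-0.021) as deposited, and SFN (-0.19) with quantile normalization. Among the 360 are the values at an adjusted p under 0.1, where each of the 29 calls is kept by definition. The number of members called was 9 with wild-type KDM5A, and became 5 with quantile normalization, 17 with array weights and 4 to 5 without 1 library. It was 10 with mutant KDM5A, 16 at an adjusted p under 0.1 and 6 to 11 without 1 library, 6 of them without mutant library 1. Between mutant and wild-type KDM5A 0 became 3 as deposited. Between knockout and parental cells 10 became 5 with only the compared libraries in the fit and 6 to 7 without 1 library.

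Over all genes, wild-type KDM5A had 807 calls, 2101 with array weights, 1689 with only the compared libraries, 1570 at an adjusted p under 0.1, 1690 without the mutant libraries and parental library 2, and 178 to 311 without 1 library. Mutant KDM5A had 2939, 6608 as deposited, 1838 with only the compared libraries, 4483 at 0.1 and 1215 to 2644 without 1 library. Mutant against wild-type had 10, 1490 as deposited, 6 with quantile normalization, 93 without a filter, 3 with a filter at a mean of 5, 3 with array weights, 214 with only the compared libraries, 643 at 0.1 and 5 to 49 without 1 library. Knockout against parental cells had 1589, 1042 with array weights, 464 with only the compared libraries, 2727 at 0.1, 1047 without the mutant libraries and parental library 2, and 685 to 1901 without 1 library. The cause of these shifts was not tested. A lone remaining library is assumed to vary like the other groups.

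Replicate numbers did not pair the libraries: for wild-type KDM5A against empty vector, deviations of same-numbered libraries correlated at -0.045, -0.005 and 0.048. With the replicate block, members called were 5 with wild-type, 6 with mutant KDM5A and 6 in knockout against parental cells, and all genes called were 214 with wild-type, 1109 with mutant KDM5A, 556 in knockout against parental cells and 1 between mutant and wild-type KDM5A. Depth is unknown, and groups of 2 or 3 libraries limit the precision.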

Other observations

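Targets of the integrated stress response were set beside the p53 targets, since GADD45A, GDF15 and SESN2 are also known to respond to that pathway. Of 11 tested genes of ATF4 and CHOP, 4 rose and 3 fell with mutant KDM5A, 1 rose and 1 fell with wild-type KDM5A, and 3 rose and 3 fell in knockout against parental cells. The shares were 36.4% up and 27.3% down with mutant KDM5A (9.48% and 7.05% of all genes), 9.09% each way with wild-type KDM5A (2.52% and 2.02%) and 27.3% each way in knockout cells (4.84% and 4.09%). With mutant KDM5A the transcription factors ATF4 (0.33, adjusted p = 0.00647 by limma) and DDIT3 (0.48, adjusted p = 0.0104), which encodes CHOP, rose after median-ratio scaling. Whether the calls of this list hold under the other scalings was not tested. As deposited, the median of all genes with mutant KDM5A against empty vector was -0.30. The cystine transporter SLC7A11 (-0.64, adjusted p = 0.00155) and the glutathione-degrading enzyme CHAC1 (-0.67, adjusted p = 0.00622) fell. With wild-type KDM5A the mTORC1 inhibitor DDIT4 rose (0.39, adjusted p = 0.0289) and CHAC1 fell (-0.41, adjusted p = 0.0454). In knockout against parental cells the phosphatase subunit PPP1R15A (0.73, adjusted p = 0.000487) and SESN2 (0.35, adjusted p = 0.00593) rose, while DDIT4 fell (-0.45, adjusted p = 0.0166). No gene of this list passed between mutant and wild-type KDM5A by limma, and 5 of 11 had an unadjusted p under 0.05, beside 20.2% of all genes.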
